A study of Mus musculus with 12 samples.

Results

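The Sprouty and Spred genes were followed in RNA from SVR tumors, a mouse model of angiosarcoma. The set held the 7 genes named Spry1, Spry2, Spry3, Spry4, Spred1, Spred2 and Spred3, chosen by gene name from the 54232 genes of the count table. SVR is 1 endothelial cell line made malignant with an activated H-ras, and it was grown under the skin of adult athymic nude mice, which lack T cells. The labels give the strain as C57BL/6. In these tumors cancer cells, host vessels and other host tissue are all of mouse origin. Mice received vehicle (control), the MEK inhibitor trametinib at 1 mg/kg, the VEGF receptor inhibitor cediranib at 3 mg/kg, or both drugs at these doses (combination), by daily gavage until the tumors ulcerated or outgrew the size limit. Each group had 3 tumors, 12 in all. That endpoint is the one in the labels, while the study's methods also describe an experiment in which all tumors were taken at the same time, and the source of the sequenced tumors and the duration of their treatment are not given. A single cell line stands for the disease. Nothing in the labels says whether the tumors of a group came from separate experiments, so p-values measure the spread between these tumors only.

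Growth factor receptors switch on RAS, which activates RAF, MEK and ERK in turn. Sprouty and Spred proteins are brakes on this pathway, and several of their genes are themselves switched on when ERK is active, so they form a negative feedback loop. Sprouty proteins act between the receptor and RAF and bind adaptors such as Grb2. Spred proteins carry an EVH1 domain and bring neurofibromin, which switches RAS off, to the membrane. In endothelium both families restrain vessel growth driven by FGF and VEGF. Trametinib blocks MEK and cediranib blocks VEGF receptors, so one acts below and the other above the step on which these proteins work.

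Depth was similar across tumors, at 9478865 to 11666094 counts per library. Values are given as counts-per-million (CPM) scaled by TMM, a factor that corrects for library composition, and a count of 3, the most that a count of 0 allows, came to 0.251 to 0.349 CPM. Counting error alone is covered by that limit. Of the 7 genes, 6 passed the low count filter and were tested together with 12897 genes in all. Spry1 did not pass. A change was called at a false discovery rate (FDR) of 0.05. Lack of overlap between groups only describes the tumors shown, and its share over all tested genes was not counted. RNA from the whole tumor was sequenced, so that fewer cells of a type and less RNA per cell cannot be told apart.

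Several lists of cell type markers moved with treatment. SVR cells are themselves endothelial, so endothelium markers can come from the cancer cells as well as from host vessels, and their level is not a measure of another cell type. These markers, 12 genes of which 10 were tested, summed to 237 to 484 CPM in control tumors, 109 to 171 CPM in trametinib treated tumors, 142 to 377 CPM in cediranib treated tumors and 76.2 to 133 CPM in combination treated tumors. The control tumors held the endothelial genes Tie1, at 140 ± 37.3 CPM (SD, n = 3), and Cdh5, at 73.5 ± 40.7 CPM, whereas Emcn was at 0 in the trametinib group. Epidermis markers, 18 genes, summed to 22.1 to 66.7 CPM in controls, 5.01 to 7.16 CPM with trametinib, 42.1 to 252 CPM with cediranib and 257 to 450 CPM with the combination. In the trametinib group 8 of the 18 were at 0, among them Flg, Ivl and Perp. Skeletal muscle markers were far higher in the second control tumor, at 16708 CPM, and in the second trametinib treated tumor, at 23856 CPM, than in the other 10, which held 5.65 to 2057 CPM. T cell markers summed to no more than 1.72 CPM in any library. With the combination 4 of 5 tested erythroid and 4 of 8 tested macrophage markers fell compared to control and 0 rose, where 5.13% of all tested genes fell. Of 7 tested fibroblast markers 3 were higher and 0 lower in tumors given trametinib, alone or combined, than in the rest. In that comparison 8.2% of all tested genes were higher.

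The 7 genes were expressed at very different levels. Between genes, levels were compared per kilobase of transcript (RPKM), a scale that does not remove differences in how well exome probes capture each gene. In control tumors Spry2 was highest, at 107 ± 13.5 RPKM (SD, n = 3), followed by Spred1 at 68.8 ± 10.8 RPKM and Spred2 at 14.4 ± 0.99 RPKM. The other 4 were low: Spry4 at 1.39 ± 0.139 RPKM, Spred3 at 0.924 ± 0.0437 RPKM, Spry3 at 0.577 ± 0.229 RPKM and Spry1 at 0.134 ± 0.132 RPKM. No neighbours in this order overlapped among the control tumors. Averaged over all 12 tumors, 96.0% of tested genes lay below Spry2 and 93.0% below Spred1, against 19.8% below Spry4 and 17.7% below Spred3. In trametinib treated tumors the order of the low genes was another one, with Spry3 at 1.51 ± 0.234 RPKM above Spry1 at 0.323 ± 0.141 RPKM, Spred3 at 0.238 ± 0.016 RPKM and Spry4 at 0.153 ± 0.06 RPKM. There Spry2 and Spred1 overlapped, as did Spry1 and Spred3.

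The genes lie apart in the genome. On GRCm38, in the coordinates of the count table, Spry2 spans chr14:105891947-105896819 on the minus strand, Spred1 chr2:117121374-117182279 on the plus strand, and Spred3 chr7:29158829-29170411 on the minus strand. Spry1 spans chr3:37639947-37644598 and Spred2 chr11:19924375-20024026, both on the plus strand. Spry3 lies on the scaffold GL456233.1 from 101352 to 106395. Spred3 shares 202 bases with Ggn on the opposite strand, and the strand setting of the counting is not given. Ggn itself held 0 to 5 counts per library. Spry1 shares 710 bases with Gm42922 on the opposite strand, which also held 0 to 5 counts.

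Windows of 250 bases before the RefSeq start site were examined in 5 of the 7 genes, all but Spry3 and Spry4. The start regions of Spry3 and Spry4 were not searched. The motif counts below therefore do not cover Spry4, the gene that fell the most with trametinib. Shown here are Spry2, the highest of the Sprouty genes, and Spred1 and Spred3, whose transcripts moved together, so that the start regions of these transcripts can be set side by side. The Spry2 window is chr14:105896820-105897069 on the minus strand, the Spred1 window chr2:117120821-117121070 on the plus strand and the Spred3 window chr7:29168648-29168897 on the minus strand, all on GRCm38.p6. Each sequence reads 5′ to 3′, and capitals mark the GC box, GGGCGG, on either strand.
Spry2: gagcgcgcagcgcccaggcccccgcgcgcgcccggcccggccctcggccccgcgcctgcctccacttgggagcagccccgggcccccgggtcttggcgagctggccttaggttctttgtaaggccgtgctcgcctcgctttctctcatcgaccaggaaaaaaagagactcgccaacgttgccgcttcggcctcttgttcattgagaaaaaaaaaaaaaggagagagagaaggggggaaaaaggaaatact
Spred1: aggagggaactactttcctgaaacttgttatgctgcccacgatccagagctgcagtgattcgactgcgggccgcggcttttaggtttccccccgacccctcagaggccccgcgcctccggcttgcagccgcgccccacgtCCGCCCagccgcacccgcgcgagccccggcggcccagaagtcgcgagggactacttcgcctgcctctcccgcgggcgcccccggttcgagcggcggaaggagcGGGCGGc
Spred3: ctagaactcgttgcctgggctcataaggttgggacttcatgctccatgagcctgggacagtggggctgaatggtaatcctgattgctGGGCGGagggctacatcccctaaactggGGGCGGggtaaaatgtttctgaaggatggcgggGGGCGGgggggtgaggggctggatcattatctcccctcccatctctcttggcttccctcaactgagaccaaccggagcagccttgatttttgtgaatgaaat
The Spred3 window lies inside the span that the count table gives for the gene, and the Spred1 window ends before the start given there. A search on both strands covered 4 motifs, an ETS site (CCGGAAG), an AP-1 site (TGANTCA), the cyclic AMP response element (TGACGTCA) and the GC box. The GC box was found in 4 of the 5 windows, with 3 matches in Spred3, 2 in Spred1, 1 each in Spred2 and Spry1, and 0 in Spry2, and 32.7% of all 32851 windows held it. Of the other motifs, 0 of the 5 windows held these letters, against 6.91% of all windows for the ETS site, 6.75% for AP-1 and 1.55% for the cyclic AMP response element. A match of letters describes the window and is not a measured site.

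With trametinib alone, 3 of the 6 tested genes fell compared to control: Spry4, Spred3 and Spred1. Among all tested genes 3.47% fell at this FDR and 2.64% rose. Spry4 and Spred3 also passed the size threshold of 1.5 on the log2 scale, which 1.43% of tested genes passed downwards. The median log2 fold change of the 6 genes was -1.20, compared to 0.01 over all genes tested.

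Spry4, a Sprouty that acts on RAS activation below growth factor receptors, spans chr18:38586268-38601268 on the minus strand and fell the most. Control tumors held 6.72, 6.78 and 5.65 CPM and trametinib treated tumors 0.634, 0.465 and 1.00 CPM. Every treated tumor lay far below every control. The log2 fold change was -3.14 ± 0.35 (SE), or 0.114 of the control level, with an FDR of 0.000388 by the quasi-likelihood test of edgeR with Benjamini-Hochberg adjustment. By p-value Spry4 ranked 34 of the 12897 genes. The treated group held 23 counts of Spry4 in all, against 202 in the controls.

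Spred3 was near the level of Spry4 in control tumors, with 5.53, 5.67 and 6.05 CPM. Trametinib treated tumors held 1.45, 1.39 and 1.59 CPM, a tight cluster below all controls. Its log2 fold change was -1.95 ± 0.26 (SE; edgeR quasi-likelihood FDR 0.00115), and it rested on 47 counts in the treated group and 181 in the controls.

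Spred1, the most abundant Spred here and the one best known for recruiting neurofibromin, fell from 551, 425 and 424 CPM to 205, 173 and 172 CPM. The groups did not overlap, and the spread within the treated group was small. The log2 fold change of -1.35 ± 0.14 (SE; edgeR quasi-likelihood FDR 0.000325) corresponded to 0.393 of the control level. Spred1 ranked 30 by p-value, ahead of Spry4, although its fold change was smaller. All of these 3 calls held without any 1 of the 6 tumors compared, with log2 fold changes of -3.49 to -2.94 for Spry4, -2.0 to -1.91 for Spred3 and -1.44 to -1.21 for Spred1. Endothelium and epidermis markers were both lower in the trametinib treated tumors. When a score of the endothelium markers, their mean log2 CPM, was a covariate, the log2 fold changes were -3.53, -1.82 and -1.44 for Spry4, Spred3 and Spred1, and all 3 passed. With a score of the epidermis markers they were -3.06, -1.91 and -1.23, and all 3 passed as well.

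The other 3 tested genes did not pass. Spry2, the most abundant Sprouty, held 218, 197 and 253 CPM in controls and 133, 62.0 and 124 CPM in trametinib treated tumors. All treated values lay below the controls, but they were scattered, and the log2 fold change of -1.06 ± 0.37 (SE) had an edgeR quasi-likelihood FDR of 0.119. The lowest, 62.0 CPM, came from the second trametinib treated tumor, the one rich in skeletal muscle markers, and without any 1 tumor the log2 fold change ran from -1.25 to -0.79. With the Wald test of DESeq2 the same comparison passed, with an FDR of 0.0277.

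Spred2, the second most abundant Spred, held 65.0, 63.1 and 71.8 CPM in controls and 54.3, 60.8 and 42.5 CPM with trametinib. The groups did not overlap, yet the difference was small, with a log2 fold change of -0.35 ± 0.14 (SE; edgeR quasi-likelihood FDR 0.187) and a 95% interval of -0.65 to -0.04.

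The Spry3 estimate had the opposite sign. This gene held 1.36, 3.14 and 3.03 CPM in controls and 7.61, 5.58 and 6.52 CPM in trametinib treated tumors, so every treated tumor was higher. The log2 fold change was 1.40 ± 0.56 (SE), which did not pass (edgeR quasi-likelihood FDR 0.178).

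Spry1 was close to the detection limit. Its counts were 9, 0 and 4 in controls, 13, 4 and 14 with trametinib, 3, 6 and 1 with cediranib and 6, 6 and 3 with the combination. The groups overlapped throughout. In a fit without the low count filter the log2 fold change between trametinib and control was 1.22 ± 0.79 (SE; edgeR quasi-likelihood FDR 0.665), so no difference was detectable at this depth.

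**Figure D1:**
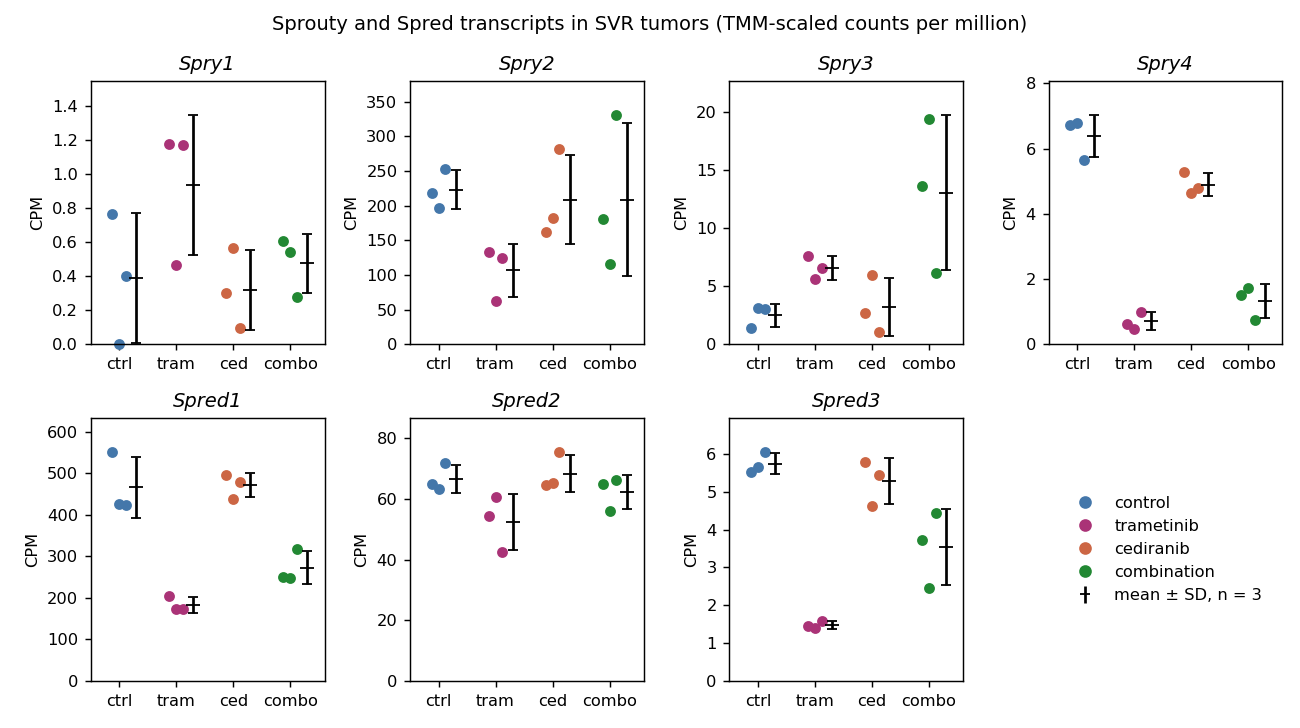
TMM-scaled CPM (linear axes from 0, a scale of its own for each gene) of the 7 genes in the 12 tumors, with points for single tumors and black marks for the mean and SD of 3 tumors. Trametinib treated tumors sit below all controls for Spry2, Spry4, Spred1, Spred2 and Spred3. Combination treated tumors do so for Spry4 (0.741 to 1.72 CPM), Spred1 and Spred3, while Spry3 has its highest mean, 13.0 CPM, in the combination group.

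With the combination, Spry4 and Spred1 fell compared to control and Spry3 rose. Among all tested genes 5.13% fell and 4.85% rose in this comparison. The median log2 fold change of the 6 genes was -0.40. This comparison and that of trametinib against control share the control tumors, so that their values are given side by side and not correlated.

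Spry4 was at 1.51, 1.72 and 0.741 CPM in combination treated tumors, below all 3 controls, with a log2 fold change of -2.26 ± 0.32 (SE; edgeR quasi-likelihood FDR 0.00253). Spred1 was at 251, 247 and 318 CPM, again below all controls, with a log2 fold change of -0.78 ± 0.14 (FDR 0.00781 by the same edgeR test). In a model with a score of the epidermis markers, which were higher in this group, these calls were lost, with FDRs of 0.0518 for Spry4 and 0.0537 for Spred1 by the edgeR test and log2 fold changes of -2.41 and -1.01. With the endothelial score the edgeR FDRs were 0.0667 and 0.18, at log2 fold changes of -2.83 and -0.92. All 4 of these estimates were larger in size than those without a score. Both scores separated the combination treated tumors from the controls without overlap, so their part cannot be told apart from that of treatment.

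Spred3 was at 3.73, 2.45 and 4.45 CPM, lower than each control but closer to them than with trametinib alone, and its log2 fold change of -0.70 ± 0.24 (SE) did not pass (edgeR quasi-likelihood FDR 0.084). Spry2 was at 180, 116 and 330 CPM, a wide spread that took in the whole control range, and its log2 fold change was -0.09 with a 95% interval of -0.88 to 0.70. Spred2 was at 64.8, 56.0 and 66.2 CPM, overlapping the controls, with a log2 fold change of -0.10 and an interval of -0.40 to 0.21.

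Spry3 was at 13.6, 19.4 and 6.11 CPM in combination treated tumors, all above the controls and also widely spread. The log2 fold change was 2.38 ± 0.56 (SE; edgeR quasi-likelihood FDR 0.0218). That call rested on the full set of tumors: it was lost without any 1 of the 3 controls or without the first or second combination treated tumor, with edgeR FDRs of 0.0537 to 0.0742, and held without the third (FDR 0.02 by edgeR), over log2 fold changes of 1.98 to 2.72. It was also lost with the endothelial score in the model (log2 fold change 3.59, edgeR FDR 0.22).

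Cediranib alone changed 0 of the 6 genes, and 0% of all tested genes passed by the edgeR quasi-likelihood test. At an unadjusted p under 0.05 the numbers were 0 of the 6 genes and 4.32% of all, and DESeq2 also called 0 of the 6. Spred1 was at 496, 439 and 478 CPM and Spred2 at 64.5, 65.1 and 75.5 CPM, with log2 fold changes of 0.01 (95% interval -0.29 to 0.32) and 0.04 (-0.27 to 0.34). Spry2 was at 161, 183 and 281 CPM and Spred3 at 5.78, 4.63 and 5.44 CPM, both overlapping the controls. Spry3, at 2.69, 5.95 and 1.05 CPM, was scattered around them. Spry4, at 5.29, 4.63 and 4.78 CPM, lay below all 3 controls, with a log2 fold change of -0.38 and an interval of -1.02 to 0.26. For Spry2 and Spry3 the intervals, -0.88 to 0.70 and -0.87 to 1.62, leave room for sizeable changes.

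**Figure D2:**
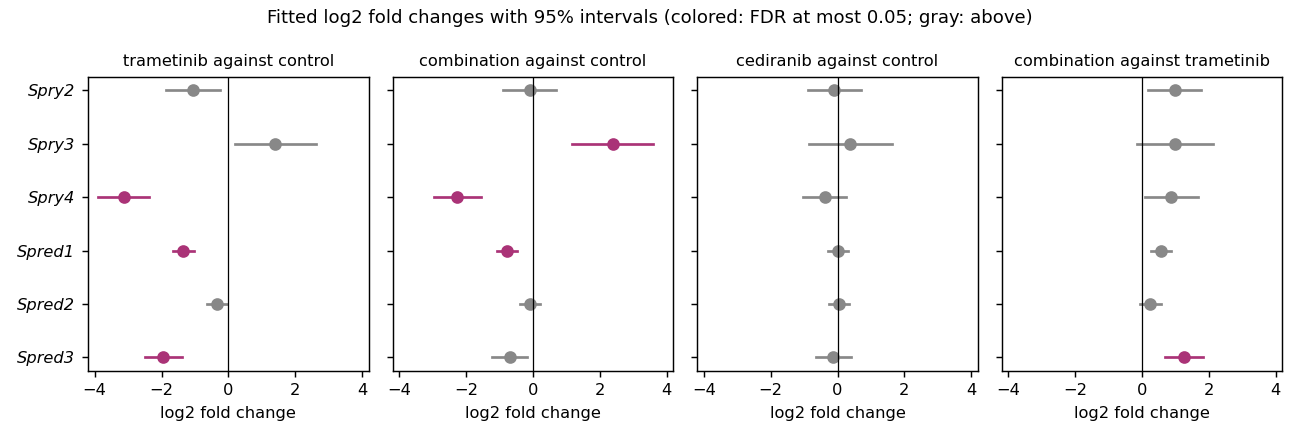
Fitted log2 fold changes (points) and 95% intervals (lines) of the 6 tested genes in 4 comparisons, colored where the FDR was at most 0.05. Spry4, Spred1 and Spred3 lie left of 0 with trametinib, all 6 intervals include 0 with cediranib alone, and all 6 points lie right of 0 for combination against trametinib, where only Spred3 passed.

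Combination treated tumors were also set against the single drugs, to show what adding the second drug changed. Against trametinib alone, Spred3 was the 1 gene of the 6 that passed, and it was higher with the combination, as were 0.721% of all tested genes. Its log2 fold change was 1.25 ± 0.26 (SE; edgeR quasi-likelihood FDR 0.0466), and the groups did not overlap. The call was marginal: it was lost without any 1 of the 6 tumors compared, where the log2 fold change ran from 1.05 to 1.47, and when the epidermal score was a covariate (1.12, edgeR FDR 0.877). All combination treated tumors had more of the epidermis markers (257 to 450 CPM) than the trametinib treated tumors (5.01 to 7.16 CPM), and their part in the difference cannot be told apart from that of treatment. Spred1 was higher in every combination treated tumor than in every trametinib treated tumor as well (0.57 ± 0.14 SE), but did not pass by the edgeR quasi-likelihood test (FDR 0.0766), while DESeq2 gave an FDR of 0.00672. The remaining estimates were 0.97 for Spry2, 0.99 for Spry3, 0.88 for Spry4 and 0.25 for Spred2, none past the threshold and all with overlapping tumors. The median of the 6 was 0.92, compared to -0.01 over all genes tested.

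Against cediranib alone, combination treated tumors had lower Spry4 (-1.88 ± 0.32 SE; edgeR quasi-likelihood FDR 0.00665) and Spred1 (-0.79 ± 0.14 SE; edgeR FDR 0.0083) and higher Spry3 (2.01 ± 0.55 SE; edgeR FDR 0.0458). Of all tested genes 3.78% were lower and 3.89% higher. Values of all 3 genes were free of overlap between these groups. The Spry3 call was lost without cediranib treated tumor 1 or 3 or combination treated tumor 1 or 2, and when these 6 libraries were fitted alone (edgeR FDR 0.0957). With the endothelial score both Spry3 (2.97, edgeR FDR 0.134) and Spred1 (-0.89, edgeR FDR 0.0511) missed the threshold, with estimates larger in size than before. That score was lower in every combination treated tumor than in every cediranib treated tumor, so its part cannot be told apart from that of treatment. Spred3 was lower by 0.58 on the log2 scale without passing (edgeR quasi-likelihood FDR 0.169). Against cediranib alone, trametinib alone gave lower Spry4 (-2.75), Spred1 (-1.36) and Spred3 (-1.83), 3 of 6 genes, where 4.47% of all tested genes were lower. Of these, Spred3 missed the threshold with the epidermal score, at a log2 fold change of -1.73 (edgeR FDR 0.0555).

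Averaged over both levels of cediranib, trametinib-treated tumors (6) differed from trametinib-free tumors (6) in 4 of the 6 genes. Spry4 (-2.51 ± 0.24 SE; edgeR quasi-likelihood FDR 4.88e-05), Spred1 (-1.07 ± 0.10 SE; edgeR FDR 4.9e-05) and Spred3 (-1.26 ± 0.17 SE; edgeR FDR 0.000563) were lower, and no treated tumor overlapped a trametinib-free one for any of them. Spry3 was higher (1.70 ± 0.39 SE; edgeR FDR 0.0112), with overlap. The shares of all tested genes were 8.54% lower and 8.2% higher. Spry2 was at -0.53 ± 0.26 and Spred2 at -0.24 ± 0.10 (SE), with edgeR quasi-likelihood FDRs of 0.194 and 0.129. Without the third combination treated tumor Spry2 was at -0.78 and passed (edgeR FDR 0.0386). With the endothelial score Spry4 and Spred1 passed, while Spry3 (2.58, edgeR FDR 0.0967) and Spred3 (-1.15, edgeR FDR 0.0608) did not.

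Whether the effect of trametinib differed in the presence of cediranib was tested as an interaction. It passed for 0 of the 6 genes and for 0% of all tested genes by the edgeR quasi-likelihood test. At an unadjusted p under 0.05 were 3 of the 6 genes, Spred3, Spry4 and Spred1, and 7.05% of all. The estimate was largest for Spred3, at 1.37 ± 0.35 (SE; edgeR FDR 0.505), followed by Spry4 at 1.26, Spry2 at 1.06, Spry3 at 0.61, Spred1 at 0.55 and Spred2 at 0.21. DESeq2 also called 0 of the 6. A difference in the trametinib effect between tumors with and without cediranib was thus not shown for any of these genes.

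Members of the family had different fold changes, and their ratios were then compared within libraries, with tests chosen after the data were seen. For each pair of the 6 genes the log2 ratio of their CPM was compared between trametinib-treated and trametinib-free tumors (6 each) with a two-sided exact permutation test that moved labels only among tumors with the same cediranib treatment, 400 arrangements in all. With 15 pairs, p-values were also adjusted over the pairs, and the smallest p this test allows is 0.005. Spry4 fell more than Spred3, which had a similar CPM without trametinib. The log2 ratio of Spry4 to Spred3 was 0.02 on average in trametinib-free tumors and -1.14 in treated tumors, a difference of -1.16 with no overlap (exact permutation p = 0.005, adjusted p = 0.0075). Trametinib against control gave -1.09 for this ratio and combination against cediranib -1.22. Spry4 also fell more than Spred1, by 1.30 on the log2 scale, and Spred1 fell more than Spred2, by 0.83, both with an exact permutation p of 0.005 and an adjusted p of 0.0075. Spry3 and Spry4, which differ most, moved apart by 4.11 (exact permutation p = 0.005, adjusted p = 0.0075).

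For Spred1 and Spred3, whose levels were far apart, no shift in ratio was detected. The log2 ratio was 6.09 to 6.59 (mean 6.36) in trametinib-free and 6.00 to 6.97 (mean 6.50) in treated tumors, a difference of 0.14 (exact permutation p = 0.39, adjusted p = 0.39). With trametinib against control the difference was 0.49, and with combination against cediranib it was -0.21. Ratios of Spry2 to Spred1 and to Spred2 did not pass either, with differences of 0.46 and -0.37 (exact permutation p = 0.12 and 0.315, adjusted p = 0.138 and 0.338). Of the 15 pairs 12 passed at an adjusted p of 0.05, with Spry2 to Spred3 exactly at that limit.

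Across the 12 tumors the levels of Spred1 and Spred3 followed each other most closely of all pairs, with a Pearson r of 0.94 on log2 CPM. All 12 points share the treatment groups. For both genes trametinib-treated tumors lay apart from trametinib-free tumors, while control and cediranib treated tumors overlapped. Within the 6 trametinib-treated tumors r was 0.92, and within the 6 trametinib-free tumors it was 0.05. Spry4 and Spred1 had an r of 0.91 over 12 tumors, 0.37 within treated and 0.18 within trametinib-free tumors, so that most of it lay between these sets of tumors. Spry3 was negatively related to each of the other 5 genes, with r of -0.70 to -0.45 over the 12 tumors. Within the treated tumors, however, Spry3 and Spry4 had an r of 0.89. These coefficients describe 12 tumors and carry no test.

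**Figure D3:**
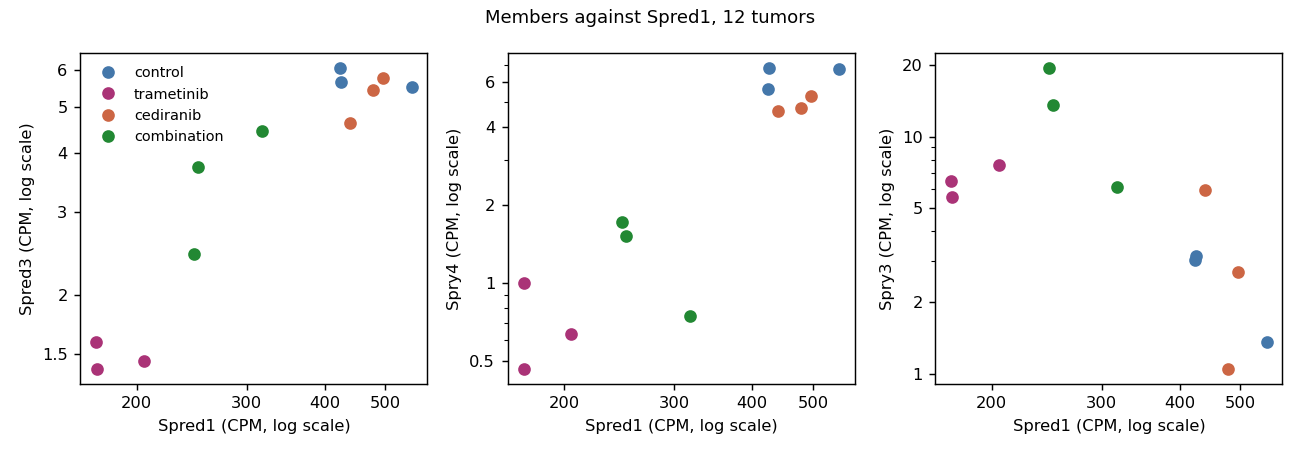
CPM of Spred3, Spry4 and Spry3 against Spred1, 1 point per tumor, both axes on a log scale and colored by treatment. Spred3 falls along with Spred1 from control and cediranib treated tumors to trametinib treated tumors with the combination in between, Spry4 splits into a high and a low cluster, and Spry3 runs the other way.

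For each tested gene the 3 other genes with the highest Pearson r over the 12 tumors were named, again as a description. For these 18 genes r ran from 0.64 to 0.97 within the treated tumors and from 0.13 to 0.97 within the trametinib-free tumors, where it was low for Jag2 (0.13), Cbl (0.18), Wnt7b (0.33), Acap1 (0.42), Egr1 (0.46) and Lyn (0.49). Those of Spred1 were Rbpj (0.98), the transcription factor of Notch signaling, Hmga2 (0.98), a chromatin protein of growing and malignant cells, and Lyn (0.98), a SRC family kinase. Rbpj went from 151 CPM in controls to 71.2 CPM with trametinib on average and had an r of 0.97 within treated and 0.90 within trametinib-free tumors. Those of Spred3 were Jag2 (0.96), a Notch ligand, Nrarp (0.96), a Notch target that dampens the pathway, and Gm38287 (0.96), which overlaps Nrarp on the other strand by 2559 bases and has nearly identical values, so that it adds nothing of its own. Nrarp was at 7.78 CPM in controls and 1.32 CPM with trametinib.

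The genes nearest to Spry4 were Wnt7b (0.97), a WNT ligand, Acap1 (0.97), a GTPase-activating protein for ARF6, and Egr1 (0.96), an immediate early transcription factor induced by ERK. Those of Spry3 were Aldh3b1 (0.93), an aldehyde dehydrogenase, 1700018L02Rik (0.92) and Ugt1a7c (0.91), a glucuronidation enzyme whose 3′ exons are shared with the rest of the Ugt1a cluster. 1700018L02Rik overlaps Ak3, on the opposite strand, by 1717 bases. Spred2 was nearest to Cbl (0.91), the ubiquitin ligase that binds Sprouty proteins, Uba6 (0.91), a ubiquitin-activating enzyme, and Gm28033 (0.89). The 3 genes nearest to Spry2, Gm37847 (0.96), Gm16867 (0.95) and Gm27175 (0.93), overlap each other on chromosome 14 outside Spry2, held 2 to 31 counts per library and amount to 1 pattern.

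Other genes of the pathway were taken from lists. Among 18 genes known to be induced by ERK signaling, a list chosen with earlier results of these data known, 13 fell and 0 rose with trametinib compared to control. Their median log2 fold change was -2.19, and of all tested genes 3.47% fell and 2.64% rose. Egr1 fell from 87.0 ± 0.973 to 3.84 ± 1.09 CPM (SD, n = 3), Dusp6, an ERK phosphatase, from 44.3 ± 4.69 to 3.37 ± 1.29 CPM, and Etv5, an ETS transcription factor, from 72.6 ± 3.70 to 5.65 ± 1.89 CPM. Their log2 fold changes were -4.49, -3.70 and -3.67, each larger in size than that of Spry4. With the combination 11 of the 18 fell and 0 rose, with a median of -1.47, where 5.13% of all tested genes fell and 4.85% rose. Against trametinib alone 4 were higher with the combination, Dusp6 (1.79), Egr1 (1.26), Etv5 (1.58) and Etv4 (1.40), as were 0.721% of all tested genes. Etv4 was named after its value was seen. With cediranib alone 0 of the 18 passed.

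Of 19 other inhibitors of RAS-ERK signaling, which share Dusp4, Dusp5 and Dusp6 with the ERK-induced list, 6 fell and 1 rose with trametinib. Of all tested genes 3.47% fell and 2.64% rose. The median log2 fold change of the 19 was -0.59. Dusp4 (-3.95), Dusp5 (-3.38) and Dusp6 (-3.70) are phosphatases of MAP kinases and fell the most. Sh2b3 (-1.45), an adaptor that restrains receptor signaling, also fell, as did Rasal2 (-0.81) and Rasa1 (-0.62), which switch RAS off. Tob1 (1.06), an antiproliferative protein, rose. Rasal2, Rasa1 and Tob1 were named after their values were seen. Cbl, at -0.73, did not pass (edgeR quasi-likelihood FDR 0.0509). With the combination 7 of the 19 fell and 1 rose, where 5.13% of all tested genes fell and 4.85% rose.

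Sprouty and Spred proteins work through adaptors, RAS proteins and kinases. Of 17 binding partners and regulators, 0 fell and 2 rose with trametinib, where 3.47% of all tested genes fell and 2.64% rose. These were Frs2, the adaptor of FGF receptors, from 20.9 ± 4.08 to 51.2 ± 6.37 CPM (log2 fold change 1.29), and Cav1, the coat protein of caveolae, from 95 ± 15.4 to 195 ± 32.4 CPM (1.04). The median of the 17 was -0.01. Frs2 (0.94) and Cav1 (0.81) also rose with the combination. Of 12 genes of the RAS-ERK core, 4 of which are also in the partner list, 0 passed with trametinib, and Ksr1 (1.27), a scaffold of the kinase cascade, rose with the combination.

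**Figure D4:**
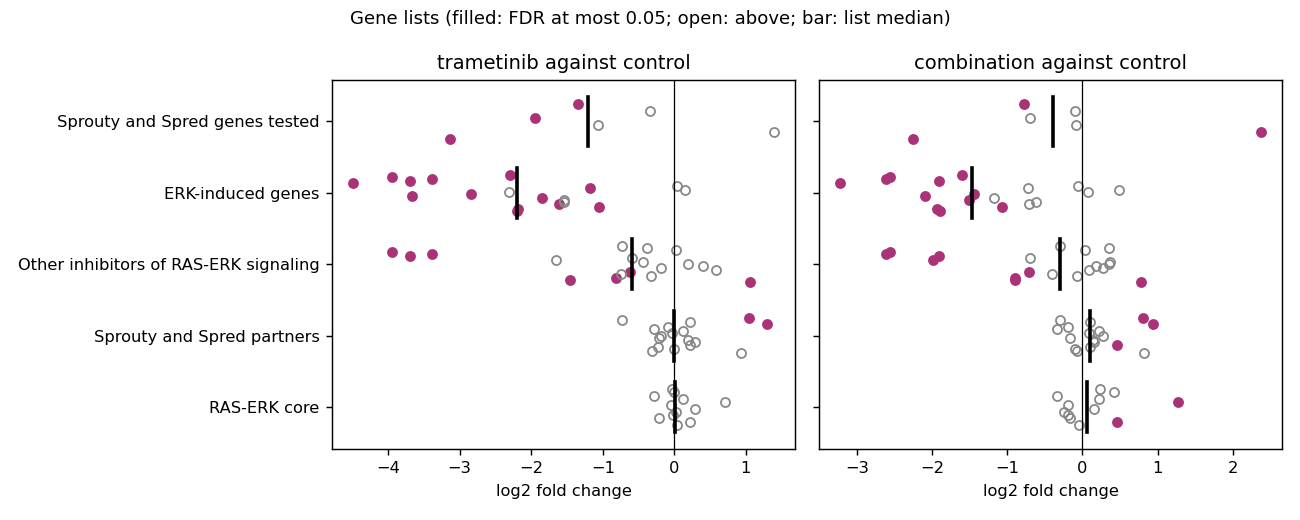
Log2 fold changes of single genes with trametinib (left) and the combination (right) compared to control for the 6 tested Sprouty and Spred genes and 4 lists, filled where the FDR was at most 0.05, with the list median as a bar. The ERK-induced genes lie furthest left (median -2.19 and -1.47), the partners and the RAS-ERK core sit around 0, and Spry3 is the 1 Sprouty or Spred gene to the right of 0 in both panels.

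Of 14 tested growth factor receptors, Flt1 fell with trametinib, from 19.6 ± 2.25 to 5.52 ± 1.32 CPM, and Pdgfra rose, from 14.7 ± 2.71 to 33.5 ± 5.52 CPM, 1 in each direction. Of all tested genes 3.47% fell and 2.64% rose. With the combination 4 of the 14 receptors fell and 3 rose, where 5.13% of all tested genes fell and 4.85% rose. Outside the Spreds, 7 genes with an EVH1 domain were tested, and Vasp (-0.98) fell and Enah (1.02) rose, both of them regulators of actin. In the endothelium list Cdh5 (-1.99), Tie1 (-1.97) and Pecam1 (-2.38) fell with trametinib, 3 of 10 tested, and 5 of 10 fell with the combination. In that list 0 genes rose in either comparison.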

How the data were processed

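RNA of 12 SVR tumors, 3 per group, was sequenced after exome capture. The authors called bases with bcl2fastq 1.8.4, aligned the reads to GRCm38 by a 2-pass run of STAR 2.7.1a and assigned them to genes with featureCounts 1.6.0 (submitters' processing notes). Unnormalized counts were deposited, 1 column per tumor, and 0 columns were left unused. Strand setting and treatment of multimapping reads were not given in the sources used here. Groups were taken from sample titles.

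All 12 libraries were fitted together with the quasi-likelihood test of edgeR 4.0.16 (R 4.3.3, TMM, filterByExpr with a minimum count of 10 and a minimum total of 15), with 1 mean per group, and p-values were adjusted over all 12897 tested genes (Benjamini-Hochberg). The tested genes held 99.8% of counts, and the biological coefficient of variation was 27.2%. The study's methods name edgeR, an FDR of 0.05 and the fold threshold, but not the test. SE is the log2 fold change over the root of F, and a prior count of 2 went into log2 CPM. The script was tested on simulated data. Replicate numbers did not pair the tumors. Members and lists were chosen with earlier results of these data known. Named were all 7 genes, the 3 genes most alike each tested one, and up to 4 genes per list by p in trametinib against control. The ratio tests and the endothelial score were chosen after seeing the data. Alternatives were size factors of DESeq2 1.42.0 (RLE), library totals, no filter, the likelihood ratio test, DESeq2, a replicate block, epidermal and endothelial scores, only the 6 libraries compared and leaving out each tumor. Start windows came from RefSeq.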

Additional observations from a re-analysis of the deposited data

How the results depend on the processing

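The falls of Spry4, Spred1 and Spred3 with trametinib passed the FDR under every alternative run, though Spred1 stayed under the size threshold of 1.5, and RLE size factors changed no call. The number of genes passing for combination against trametinib (1) was 4 without the low count filter, 2 with the likelihood ratio test, 2 with DESeq2 and 0 with the replicate block, the epidermal score, the endothelial score, the 6 libraries alone, the size threshold of 1.5, or without any 1 tumor (range 0 to 0). Without the filter, 5 passed for trametinib against control (Spry2 and Spry3 added), 5 for trametinib against cediranib and 1 for the interaction (Spry2). That fit gave Spry2 an edgeR FDR of 5.63e-09 for trametinib against control, against 0.119 with the filter, so the calls it adds are doubtful. For combination against control 1 passed with the epidermal score and 0 with the endothelial score, which also left 1 for combination against cediranib and 2 for all trametinib-treated tumors. The size threshold also left 2 there. The cause of these shifts was not tested.

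Same-numbered tumors had correlations of -0.22 to 0.36 in their deviations, and others -0.44 to 0.35, and 4 of 12 tumors correlated best with one of its own number, so the numbers gave no pairing. With the replicate block Spry2 passed for trametinib against control (-1.12, edgeR FDR 0.031), against cediranib (-0.99, edgeR FDR 0.0415) and for all treated tumors (-0.60, edgeR FDR 0.0453), Spred3 missed for combination against trametinib (1.24, edgeR FDR 0.0609), and Spry2 reversed for combination against cediranib (-0.083).

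Reversals touched only values that had not passed. With library totals Spry2 and Spred2 were at 0.047 and 0.034 for combination against control. With the epidermal score Spred1 was at -0.11 for cediranib against control, Spry2 at -0.038 for combination against cediranib and Spry3 at -0.13 for trametinib against cediranib. With the endothelial score Spred2 was at 0.064 for combination against control and Spred1 at -0.031 for cediranib against control. Leaving out 1 tumor gave ranges of -0.050 to 0.15 (Spred1), -0.048 to 0.094 (Spred2), -0.38 to 0.060 (Spry2) and -0.41 to 0.79 (Spry3) for cediranib against control, and for Spry2 -0.60 to 0.21 for combination against control and -0.49 to 0.31 for combination against cediranib. Depth limits Spry1 and, with 23 counts in the trametinib group, the precision of Spry4. With a prior count of 0.5 all 15 pair ratios kept their direction and side of the threshold.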
